A study of Mus musculus with 4 samples.

Results

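A gene model built by Cufflinks can take in more than one annotated gene, and its row in the deposited gene table then carries several symbols joined by commas. All such rows were taken, whatever their status, and they came to 287 of the 29286 rows, or 0.98%, holding 636 different gene symbols. The table compared cultured mouse podocytes that received a miR-93 mimic with the same cells given a nontargeting (NT) mimic. Podocytes are the epithelial cells that wrap the capillaries of the kidney filter. The cells were a conditionally immortalised mouse line. After 12 days of differentiation they were given 50 nM of a mimic, and RNA taken 48 h later made 2 libraries per group. Both groups therefore carried the immortalising construct, the transfection reagent and a small RNA duplex.

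The table held 1 value per group and row, pooled by the authors over both libraries, as FPKM (sequenced fragments scaled to transcript length and to library size). No value per library was in the files used here, so no replicate error, depth or test could be given, and each difference below is a description of 2 pooled values. The table called the groups q1 and q2 without naming them. A panel of the study shows the values of Rps6ka4, the kinase gene Msk2, under group names. In the table Rps6ka4 stood at 9.68 FPKM in q1 and 14.7 FPKM in q2. By that pair q1 was read as the miR-93 mimic and q2 as the NT mimic. Every direction below would turn if that reading were wrong. Among podocyte markers, nephrin (Nphs1) was near absent, at 0.164 FPKM with the miR-93 mimic and 0.0387 FPKM with the NT mimic. Synaptopodin (Synpo) was at 158 FPKM in both groups.

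Genes come to share a row in a few known ways. A microRNA (miRNA) or a small nucleolar RNA is often cut out of an intron or exon of a longer host transcript, so host and small RNA lie on the same stretch of DNA. Neighbouring genes on the same strand can be joined by read-through transcripts that run past the end of the first into the second. Copies of a gene that arose side by side can share exons or enough sequence for reads to bridge them. Poly-A libraries catch the long host or primary transcript and not the mature miRNA. A row named for a miRNA therefore gives the level of longer RNA assigned to it, which need not be that of the host. A longer gene of the same stretch can stand in a row of its own, as Mcm7 did beside Mir93 and Iars2 beside Mir194-1,Mir215.

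A miRNA finds its targets mainly through its seed, bases 2 to 8 from its 5′ end, which pairs with the 3′ untranslated region (UTR) of a messenger RNA. In the miRNAs looked up here, 4 others carried the seed of miR-93, and 1 of them, miR-106a, belonged to a merged row (Kis2,Mir106a). The sequences are from RefSeq (GRCm38), with the seed in capitals, and they show that these miRNAs differ from each other only outside it.
mmu-miR-93-5p: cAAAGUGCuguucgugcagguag
mmu-miR-106a-5p: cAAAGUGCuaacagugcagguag
mmu-miR-17-5p: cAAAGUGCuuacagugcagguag
mmu-miR-20a-5p: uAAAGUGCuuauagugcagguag
mmu-miR-106b-5p: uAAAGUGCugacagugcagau

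Matches to the miR-93 seed were looked for on the sense strand of the longest annotated 3′ UTR of each merged gene (GENCODE M21, GRCm38, protein-coding transcripts). The words searched were GCACTTTA (called 8mer), GCACTTT (7mer-m8), CACTTTA (7mer-A1) and CACTTT (6mer), each shorter word being part of a longer one. The windows below belong to the 6 lowest rows with a match of 7 or 8 bases among those with a mean of at least 1 FPKM, with the matching bases in capitals, 10 bases before them and 8 after.
St6galnac6: ccttgcttaaGCACTTTAttaagggc
Rcan3: attctcaatgGCACTTTAagtgacaa
Rab11fip5: catgttttgaGCACTTTAtgaagaat
Klhl2: acttgtagccGCACTTTAcgtctcag
Ctla2b: ctttagttttCACTTTAataagatg
Gcat: agtttcccccCACTTTAgagagctg

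Most merged rows held 2 names (262 rows), 20 held 3, 2 held 4, and 1 row each held 8, 14 and 22. By their symbols, 109 rows joined a named gene with a predicted or clone-named transcript, 67 joined genes of different names, 39 held a small RNA gene and 38 joined genes of a shared name stem, that is, at least the first 2 letters. A further 27 held predicted transcripts only, and 7 spelled out a read-through transcript beside its 2 parts. Of the 636 symbols, 551 matched a gene in GENCODE M21 or RefSeq, and 70 of the 85 without a match were LOC numbers of the older annotation. Of the 262 rows with 2 names, 162 had both genes placed on 1 chromosome as different genes today. In 160 of these the genes lay on the same strand, in 80 with overlapping exons, in 2 with overlapping bodies only and in 78 without overlap. Only Dub2a,Usp-ps and 100041515,Gm3187 paired opposite strands, and in 9 rows both symbols now name a single gene, such as Ctage5,Mia2 and Rundc2a,Snx29.

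The merged rows spanned 34960 bases at the median, against 18412 bases for the 25327 rows with a single gene symbol. The span is the assembled stretch as the table prints it on mouse build mm9. It ran from 933 bases (Gm12166,LOC100503863) to 577743 bases (Ank2,Gm4392, the ankyrin gene of chr3:126624524-127202267), with 61 rows over 100000 bases and 31 under 10000. The next longest rows were Gm13034,Zfp600, Rundc2a,Snx29, LOC100504473,Msi2 and Mir568,Zbtb20, at 545108, 434334, 426778 and 395313 bases. The stretch does not belong to the merged row alone. In 103 of the 287 rows at least 1 more row carried the same coordinates, among them Mir669a-3,Mir669c, whose stretch held 20 rows, and Gm13034,Zfp600, whose stretch held 11. The symbols of 8 merged genes also named a row of their own. Pnp1, a purine nucleoside phosphorylase gene, stood at 45.4 FPKM with the miR-93 mimic and 49.2 FPKM with the NT mimic in its own row and at 22.8 and 25.5 FPKM in Pnp1,Pnp2.

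Merged rows were seldom silent. Status OK, by which the authors' tool marks a row with enough reads for its test, was given to 91.3% of them against 51.8% of single-gene rows. A mean FPKM of at least 1 together with that status was reached by 235 merged rows (81.9%) against 42.6% of single-gene rows. Among the rows that reached it, the median level was 9.46 FPKM for merged rows and 10.8 FPKM for single-gene rows. Of the 235, 120 had a mean FPKM under 10, 102 lay between 10 and 100, and 13 reached 100 or more.

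The highest levels were those of rows with cytoskeletal genes. The row 2900073G15Rik,Myl12b, which holds a myosin regulatory light chain, stood at 1066 FPKM with the miR-93 mimic and 1104 FPKM with the NT mimic. Cald1,LOC100503943, with the actin-binding protein caldesmon, had 806 FPKM against 922 FPKM, a log2 ratio of -0.19. Log2 ratios throughout are of miR-93 mimic over NT mimic after adding 0.1 FPKM to each value, which understates the change of low rows. The class I histocompatibility row Gm7035,H2-K1 had 356 FPKM against 434 FPKM (log2 ratio -0.29). Tuba1a,Tuba1b, which encode alpha-tubulins so alike that short reads cannot always be placed, had 251 FPKM against 246 FPKM. Pcbp2,Prr13, with an RNA-binding protein of poly-C tracts, had 212 FPKM against 248 FPKM (log2 ratio -0.23). Cntf,Zfp91,Zfp91-Cntf and Mtmr4,Sept4 followed at 161 and 163 FPKM with the miR-93 mimic. Atn1,Grcc10,Rnu7, Aars,Exosc6, with the alanyl-tRNA synthetase, and Glud1,Gm3219, with glutamate dehydrogenase, had 144, 116 and 115 FPKM with the miR-93 mimic and 159, 125 and 120 FPKM with the NT mimic. Apart from Mtmr4,Sept4, these rows differed by at most 0.29 on the log2 scale.

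The change of the 235 rows was small as a whole. Their median log2 ratio was -0.07, beside -0.09 for the 10798 single-gene rows and -0.09 for all 12486 rows of the same status and level. Of the 235, 154 lay below 0 (65.5%), against 69.3% of all such rows, and 170 lay within 0.2 of 0. At a fold of 0.5 on the log2 scale, the fold part of a cutoff in the study's methods that also used p-values, 6 merged rows were lower with the miR-93 mimic (2.55%) against 4.47% of all rows, and 3 were higher (1.28%) against 2.06%. The merged rows were thus past this fold no more often than the table as a whole. After centring on the median of all rows the split was 3 lower and 3 higher. The share of all rows past the centred fold was not computed, so no comparison is drawn from this split.

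The scatter of single-gene rows differed with their level, so each merged row was also set against single-gene rows of like level, in steps of 0.5 on the log10 scale of mean FPKM. Of the 235 rows, 7 lay outside the central 95% of their step (2.98%), against 5.6% of all rows over the floor. Of these, 4 lay below (1.7%, against 2.96% of all rows) and 3 above (1.28%, against 2.64%). The 4 below were St6galnac4,St6galnac6, Ctla2a,Ctla2b, AA467197,Mir147 and 1700021K14Rik,Cdh29,Uba7, the last at the very edge. The 3 above were Ly6c1,Ly6c2, 4933415A04Rik,Ccnjl and Mtmr4,Sept4. Ly6c1,Ly6c2 passed the floor only through its value with the miR-93 mimic.

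**Figure D1:**
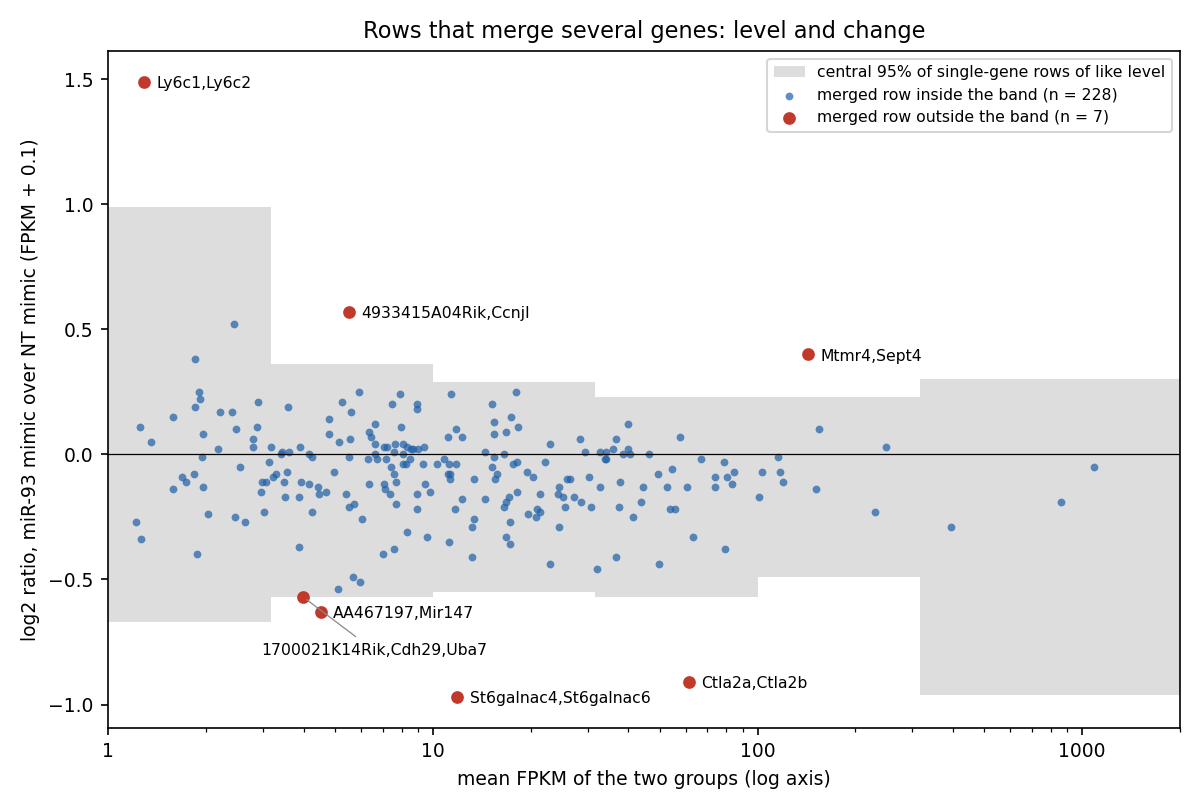
Mean FPKM of both groups (x, log axis) and log2 ratio of miR-93 mimic over NT mimic (y) for the 235 merged rows of status OK and mean FPKM of at least 1, with the grey steps marking the central 95% of single-gene rows of like level. The 7 red points lie outside the grey, with Ly6c1,Ly6c2 at 1.49 and St6galnac4,St6galnac6 at -0.97, and 228 lie inside.

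The row furthest down was St6galnac4,St6galnac6 (chr2:32442570-32476324, mm9), at 8.02 FPKM with the miR-93 mimic and 15.8 FPKM with the NT mimic. Its genes encode sialyltransferases, which add sialic acid to sugar chains, and they lie side by side on the same strand without overlap. The log2 ratio was -0.97, the NT mimic value being 1.97 times the other, and 0.737% of all 12486 rows lay as low or lower. The 3′ UTR of St6galnac6, shown above, held an 8mer match at bases 1063 to 1070 of 1277, and that of St6galnac4 a 6mer. The row does not tell which of the genes carried the difference.

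Ctla2a,Ctla2b (chr13:60996711-61038051) had 42.7 FPKM with the miR-93 mimic and 80.3 FPKM with the NT mimic, a log2 ratio of -0.91. These neighbours encode close relatives of the inhibitory part of cathepsin proteases, and they are near-copies of each other, so the split of reads between them is uncertain. Ctla2b held a 7mer-A1 match and Ctla2a none. The row is the only one of the 4 below the band with a mean level over 31.6 FPKM.

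AA467197,Mir147 (chr2:122463605-122466812) had 3.53 FPKM against 5.49 FPKM (log2 ratio -0.63), and no seed match was found in its 3′ UTR. The row joins a short protein-coding gene with the miRNA gene that overlaps it, and miR-147 itself was not measured. The row 1700021K14Rik,Cdh29,Uba7 had 3.18 FPKM against 4.79 FPKM (log2 ratio -0.57). Uba7 activates ISG15, a ubiquitin-like protein of the interferon response. The neighbouring row 6230427J02Rik on the same stretch had 3.17 FPKM against 2.76 FPKM, in the other direction.

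Mir700,Rcan3 had 4.13 FPKM with the miR-93 mimic and 6.06 FPKM with the NT mimic (log2 ratio -0.54). Rcan3 is a regulator of the phosphatase calcineurin, and its 3′ UTR held an 8mer match. Galr3,Gcat had 4.91 FPKM against 7.04 FPKM (log2 ratio -0.51), with a 7mer-A1 match in Gcat, which encodes a mitochondrial enzyme of threonine breakdown. These 6 rows were those past the fold of 0.5 downwards. In 4 of the 10 lowest rows a match of 7 or 8 bases was found, and in 1 of the 10 highest, against 30.5% of merged rows over the floor with a 3′ UTR.

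The other 4 of the 10 lowest rows held no match of 7 or 8 bases. Olfr874,Olfr875, named for olfactory receptors, had 4.73 FPKM against 6.66 FPKM (log2 ratio -0.49). C2,Cfb, a pair of complement genes of the histocompatibility region on chromosome 17, had 26.9 FPKM against 37.1 FPKM (-0.46). Ifi47,Olfr56, which holds an interferon-inducible GTPase, had 42 FPKM against 57.2 FPKM (-0.44), and Tgtp2, another GTPase of that response on the same stretch, had 20.3 FPKM against 29.1 FPKM in its own row. Chpf2,Mir671, with an enzyme that lengthens chondroitin chains, had 19.4 FPKM against 26.3 FPKM (-0.44). All 4 stayed inside the band of their level.

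A few further immune rows were picked after their values were seen, and they are not a full list. Igtp,Irgm2, also interferon-inducible GTPases, had 23.7 FPKM with the miR-93 mimic and 27.5 FPKM with the NT mimic (log2 ratio -0.21). H2-DMb1,H2-DMb2, which help to load peptides on class II molecules, had 17.9 FPKM against 21.2 FPKM (-0.24), and Eif2ak2,Gm6548, with the kinase that responds to double-stranded RNA, had 82.8 FPKM against 86.7 FPKM (-0.07). The complement pair C1ra,C1rb had 4.92 FPKM against 4.66 FPKM (0.08). Tlr1,Tlr6, Lyz1,Lyz2, Slfn8,Slfn9 and C4a,C4b all had under 0.6 FPKM in both groups. Of the 4 rows here that passed the floor, C1ra,C1rb was higher with the miR-93 mimic and the others lower, which is near the 69.3% of all rows below 0, and none lay outside its band.

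Ly6c1,Ly6c2 (chr15:74875442-74942379) had the highest ratio over the floor, with 1.94 FPKM with the miR-93 mimic and 0.627 FPKM with the NT mimic (log2 ratio 1.49). The genes encode lipid-anchored surface proteins known from monocytes and endothelium and are near-copies. Among leukocyte markers, Cd3e and Emr1 were listed at 0 in both groups, Ptprc stood at 0.0332 FPKM with the miR-93 mimic and 0.014 FPKM with the NT mimic, and Itgam at 0.0247 and 0.0112 FPKM. The 5 endothelial markers summed to 0.256 and 0.232 FPKM, with Emcn listed at 0 in both. The row Ly6c1,Ly6c2 is close to the floor of 1 FPKM and passed it only through its value with the miR-93 mimic.

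The row 4933415A04Rik,Ccnjl, with a cyclin J-like gene, had 6.61 FPKM with the miR-93 mimic and 4.4 FPKM with the NT mimic (log2 ratio 0.57). Insl3,Jak3 had 2.88 FPKM against 1.98 FPKM (0.52), inside the band of its level. Jak3 is a cytokine receptor kinase, and Insl3 is a peptide hormone best known from the testis. Mtmr4,Sept4 (chr11:87388698-87429805) had 163 FPKM against 124 FPKM (log2 ratio 0.40), and 97.1% of all rows lay as low or lower. Sept4 is a septin, a filament-forming GTPase, and Mtmr4 a phosphatase of membrane lipids. Their exons do not overlap, and Mtmr4 held only a 6mer match. Of the rows above the band this one had the highest level.

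The remaining rows of the 10 highest differed by 0.38 or less. LOC100504582,LOC100504593 had 2.11 FPKM with the miR-93 mimic and 1.6 FPKM with the NT mimic. Clcn5,LOC100504671, with a chloride and proton exchanger of kidney endosomes, had 19.6 FPKM against 16.4 FPKM. Zfp429,Zfp456, a pair of zinc-finger genes, had 2.07 FPKM against 1.72 FPKM, Golt1a,Kiss1 had 8.57 FPKM against 7.21 FPKM, and LOC100503611,Wnt4, with the signalling ligand Wnt4 of kidney development, had 12.4 FPKM against 10.5 FPKM. All of these lay inside the band of single-gene rows. Zfp429 and Zfp456 also named rows of their own, at 0.704 and 0.502 FPKM with the miR-93 mimic and 0.873 and 0.417 FPKM with the NT mimic.

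**Figure D2:**
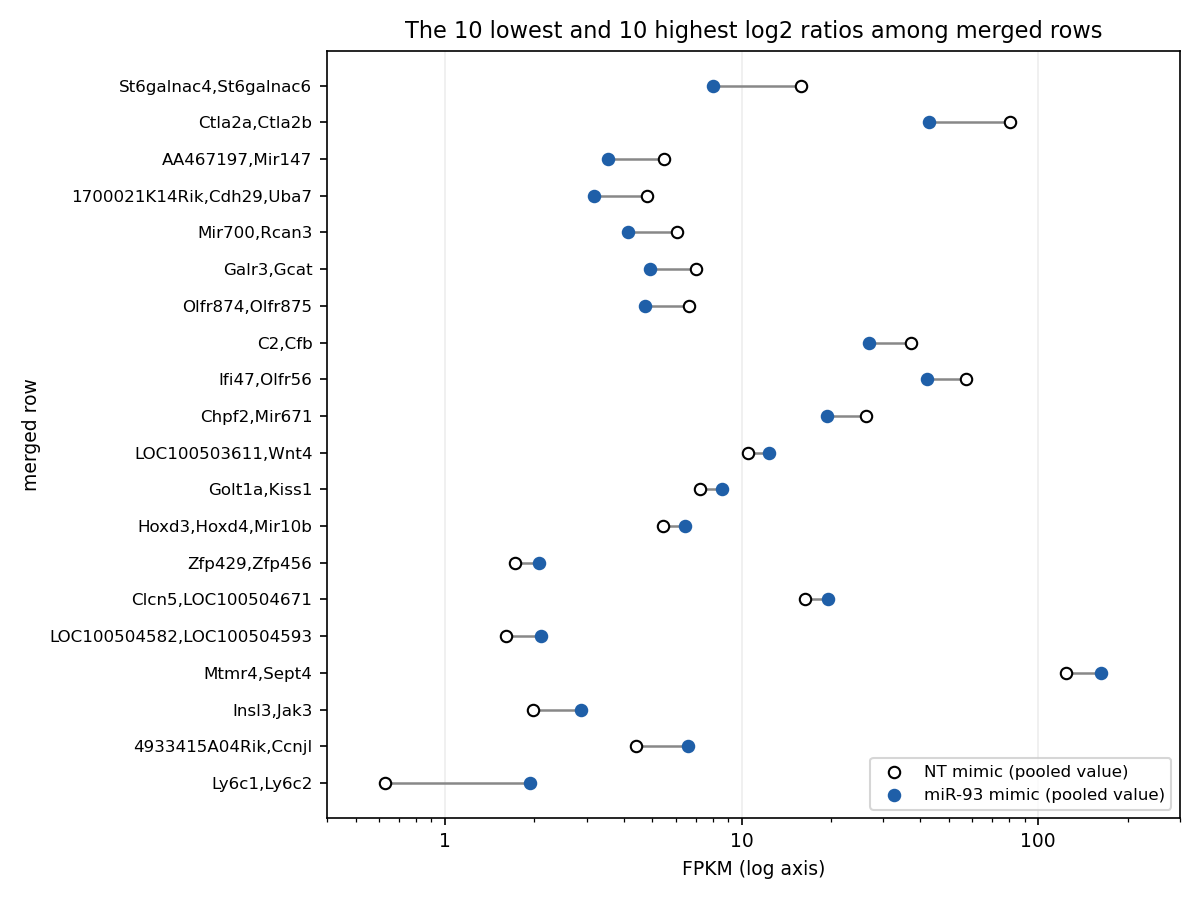
FPKM (x, log axis) in the NT mimic (open) and miR-93 mimic (filled) groups, each point a value pooled over 2 libraries, for the 10 lowest and 10 highest log2 ratios among merged rows over the floor. The widest gaps are those of St6galnac4,St6galnac6 (8.02 against 15.8), Ctla2a,Ctla2b (42.7 against 80.3) and Ly6c1,Ly6c2 (1.94 against 0.627), while the 5 pairs from LOC100503611,Wnt4 to Clcn5,LOC100504671 lie close.

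Small RNA genes stood in 39 merged rows, 35 with a miRNA gene and 4 with a small nucleolar or nuclear RNA gene, and 28 of them passed the floor. Their median log2 ratio was -0.09, beside -0.07 for the 207 merged rows without one. In 6 rows miRNA genes stood alone, with no host named. AA467197,Mir147 and Mir700,Rcan3 were the 2 past the fold, both lower, and 20 of the 28 lay below 0 (71.4%, against 69.3% of all rows).

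The host of miR-21, Tmem49 (also called Vmp1, a protein of autophagy), shared a row with Mir21 that had 80.1 FPKM with the miR-93 mimic and 87 FPKM with the NT mimic (log2 ratio -0.12). Mir704,Pdia4, with a protein-folding enzyme of the endoplasmic reticulum, had 94.9 FPKM against 107 FPKM (-0.17). Mir686,Psmb5, with a catalytic proteasome subunit, had 56.1 FPKM against 70.4 FPKM (-0.33), and Mir705,Rab11fip5, with a membrane-recycling adaptor whose 3′ UTR held an 8mer match, had 31.4 FPKM against 41.8 FPKM (-0.41). Mir702,Plod3, with a collagen-modifying enzyme, had 36.1 FPKM against 35.5 FPKM. Of these 5 rows, 4 were lower with the miR-93 mimic and Mir702,Plod3 was level, at 0.02.

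The remaining miRNA hosts over the floor differed little. Mir568,Zbtb20, with a zinc-finger repressor, had 3.9 FPKM with the miR-93 mimic and 4.6 FPKM with the NT mimic (log2 ratio -0.23). Irak1,Mir718, with a kinase of Toll-like receptor signalling, had 16.1 FPKM against 18.1 FPKM (-0.17), and Ctdsp2,Mir26a-2,Mir546, with a phosphatase of RNA polymerase, had 17.3 FPKM against 16.2 FPKM (0.09). Mir678,Prmt2, 2210403K04Rik,Mir22, Inpp5b,Mir698, Ercc2,Mir343, Dnaja1,Mir207 and Mir719,Nupl1 lay between those of Irak1 and Ctdsp2, from -0.10 to 0.08. Among the rows with a small nucleolar RNA gene, 1810032O08Rik,Snord1a had 3.36 FPKM against 4.36 FPKM (-0.37), 2700023E23Rik,Snora26 had 6.91 FPKM against 6.36 FPKM (0.12), and Rabggtb,Snord45c, with a subunit of the enzyme that attaches lipids to Rab proteins, had 34 FPKM against 34.5 FPKM (-0.02). Small nucleolar RNAs guide the chemical marking of ribosomal RNA, and here too the longer host was measured. These rows lay on both sides of 0, all inside the band of their level.

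Over the floor, most rows of clustered miRNAs had similar values in both groups. The miR-221 and miR-222 primary transcript (LOC100503338,Mir221,Mir222) had the largest difference among those over the floor, 6.04 FPKM with the miR-93 mimic and 7.99 FPKM with the NT mimic (log2 ratio -0.40). These miRNAs share a seed, in capitals.
mmu-miR-221-3p: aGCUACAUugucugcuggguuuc
mmu-miR-222-3p: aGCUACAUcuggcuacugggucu
Mir23a,Mir24-2,Mir27a had 4.82 FPKM against 5.06 FPKM (-0.07). The second gene of miR-24 stood in 2010111I01Rik,Mir24-1, at 11 FPKM against 11.4 FPKM (-0.04). The rows of both genes thus differed by under 0.1, while the mature miR-24-3p that they share was not measured.

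The let-7 family was spread over 3 merged rows with 6 miRNAs of the same seed.
mmu-let-7a-5p: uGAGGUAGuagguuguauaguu
mmu-let-7b-5p: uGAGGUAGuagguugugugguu
mmu-let-7c-5p: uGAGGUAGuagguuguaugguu
mmu-let-7d-5p: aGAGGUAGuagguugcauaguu
mmu-let-7e-5p: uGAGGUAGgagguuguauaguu
mmu-let-7f-5p: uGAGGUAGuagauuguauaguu
Mirlet7a-1,Mirlet7d,Mirlet7f-1 had 1.67 FPKM with the miR-93 mimic and 1.8 FPKM with the NT mimic (log2 ratio -0.11), and Mirlet7b,Mirlet7c-2 had 3.09 FPKM against 3.16 FPKM (-0.03). Mir125a,Mir99b,Mirlet7e,Ncrna00085 had 5.61 FPKM against 4.84 FPKM (0.21). The third row thus went the other way from the first pair, and all 3 stayed inside the band of their level.

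Other miRNA rows were near or under the floor. Mir15a,Mir16-1, whose miRNAs share the seed AGCAGCA, had 0.581 FPKM with the miR-93 mimic and 0.396 FPKM with the NT mimic. C030002C11Rik,Mir29b-2,Mir29c had 0.452 FPKM against 0.401 FPKM, and Mir194-1,Mir215 had 0.157 FPKM against 0.36 FPKM. Mir19b-1,Mirhg1, a stretch of the miR-17 to miR-92 cluster, had 0.302 FPKM against 0.299 FPKM. Col7a1,Mir711, with the collagen of anchoring fibrils, had 0.771 FPKM against 0.97 FPKM, while Mir369,Mir410,Mir412,Mirg and 6430411K18Rik,Mir127 were listed at 0 in the NT mimic and at 0.0501 and 0.00485 FPKM in the miR-93 mimic. Kis2,Mir106a, the merged row with a miR-93 seed relative, was listed at 0 in both groups, as were Meg3,Mir770, F630028O10Rik,Mir223 and Mir669a-3,Mir669c. The gene of miR-93 was not in a merged row. Mir93, Mir25 and Mir106b were listed at 0 in rows of their own on the stretch of their host Mcm7, which had 5.61 FPKM against 6.41 FPKM. The mimic is not a poly-A transcript and was not measured here.

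Hox genes, which set position along the body axis and carry miRNA genes between them, gave 3 merged rows. Hoxd3,Hoxd4,Mir10b had 6.45 FPKM with the miR-93 mimic and 5.41 FPKM with the NT mimic (log2 ratio 0.25), Hoxa5,Hoxa6 had 5.95 FPKM against 5.27 FPKM (0.17), and Gm53,Hoxb9 had 59 FPKM against 56.3 FPKM (0.07). All 3 lay above 0, as did 30.7% of all rows over the floor, and all were inside the band. Hox genes were not on the list of gene families to be named. Hoxa3, which had a row of its own on the stretch of Hoxa5 and Hoxa6, had 1.71 FPKM against 1.77 FPKM.

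**Figure D3:**
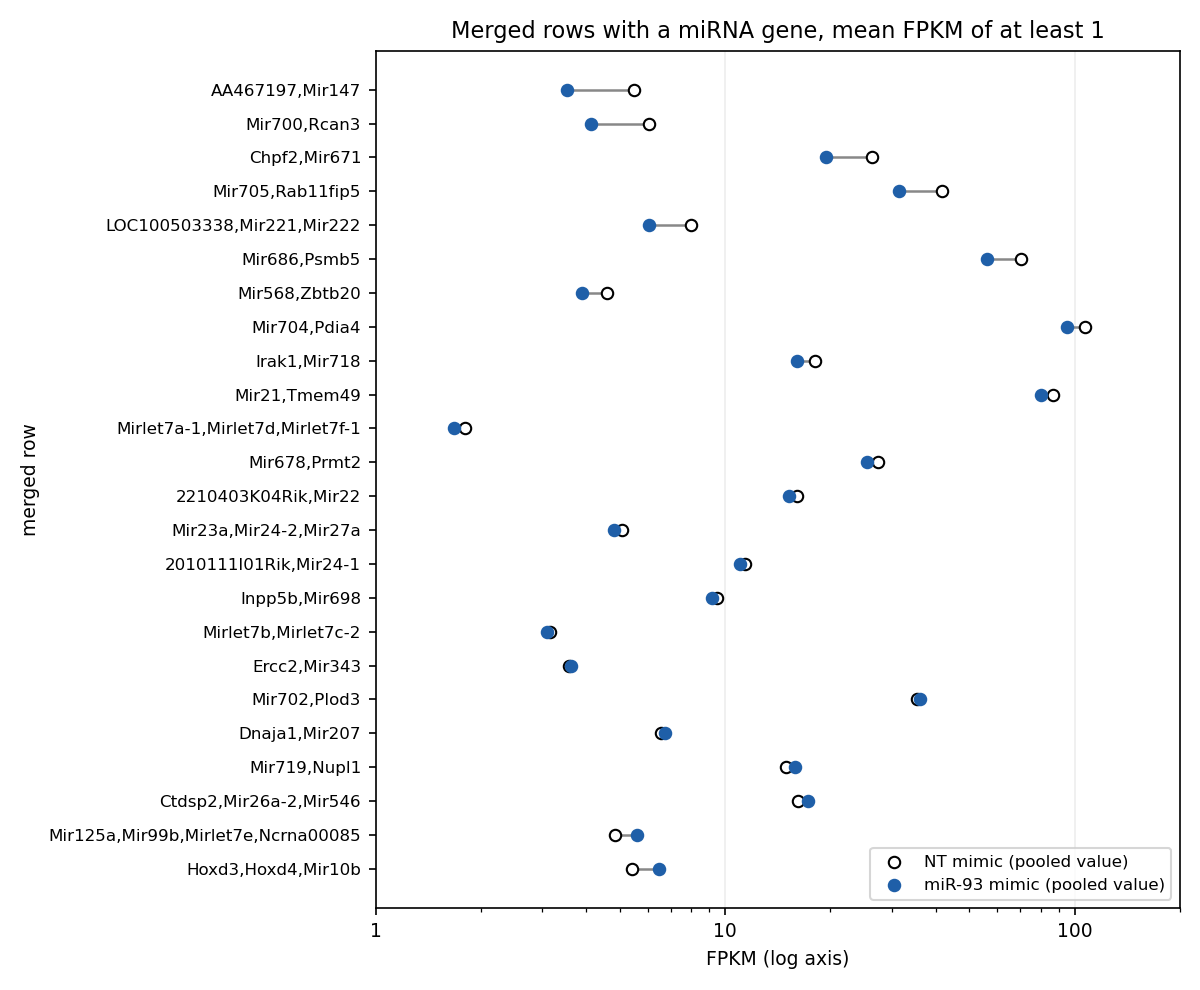
FPKM (x, log axis) in the NT mimic (open) and miR-93 mimic (filled) groups for the 24 merged rows that hold a miRNA gene and pass the floor, sorted by log2 ratio, each point a pooled value. The rows run from AA467197,Mir147 at -0.63 to Hoxd3,Hoxd4,Mir10b at 0.25, and most pairs of points nearly touch.

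Read-through transcripts named as such stood in 7 rows. Cntf,Zfp91,Zfp91-Cntf, which joins a ubiquitin ligase gene with the ciliary neurotrophic factor gene behind it, was the highest, at 161 FPKM with the miR-93 mimic and 150 FPKM with the NT mimic. Cbx6,Cbx6-Nptxr,Nptxr, with a Polycomb chromobox gene, had 31.1 FPKM against 34 FPKM. Lrch4,Lrch4-sap25,Sap25 had 18.3 FPKM against 16.5 FPKM, and Il4i1,Nup62,Nup62-il4i1, with a nuclear pore gene, had 15.4 FPKM against 15.5 FPKM. Chkb,Chkb-Cpt1b,Cpt1b, which joins choline kinase with a fatty-acid carrier enzyme of mitochondria, had 12.1 FPKM against 11.4 FPKM. Tnfsf12,Tnfsf12-Tnfsf13,Tnfsf13, with the cytokine genes TWEAK and APRIL, was the lowest of them at 6.6 FPKM against 8.6 FPKM (log2 ratio -0.38). The median of the 6 over the floor was 0.04, and none was past the fold. The seventh, Tmsb15b1,Tmsb15b1-Tmsb15b2,Tmsb15b2, had 0.182 FPKM against 0.0164 FPKM, both under the floor.

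Gene clusters that splice many first exons to shared last ones gave the rows with the most names. The 22 genes of the gamma protocadherin cluster, cell-surface adhesion proteins, formed 1 row with 32.7 FPKM with the miR-93 mimic and 32.6 FPKM with the NT mimic. The 14 alpha protocadherins had 0.021 FPKM against 0.0339 FPKM and were not tested by the authors' tool. Pcdhb16,Pcdhb17 had 2.81 FPKM against 3.12 FPKM (log2 ratio -0.15). The Ugt1a row of 8 glucuronidation enzymes, which make compounds soluble for excretion, had 6.27 FPKM against 6.34 FPKM. In the gamma and alpha protocadherin rows and the Ugt1a row the level is a sum over alternative first exons, so the single genes cannot be told apart.

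The 25 rows over the floor whose genes share a name stem had a median log2 ratio of -0.07, and they held both the lowest and the highest merged row. Symbols starting with Zfp, a name for zinc-finger genes, stood in 9 merged rows, all over the floor and none past the fold. Their log2 ratios ran from -0.24 (AI894139,Zfp783) to 0.25 (Zfp429,Zfp456). Zinc-finger genes under other symbols, such as Znf512b (Uckl1,Znf512b, -0.27) and Zbtb38, were not counted. Histone genes stood in 2 rows. Hist2h2bb,Hist2h3b had 4.22 FPKM against 4.61 FPKM, and Hist1h1e,Hist1h2be, at 16 FPKM with the miR-93 mimic and 14.6 FPKM with the NT mimic, had status FAIL. Most histone mRNAs carry no poly-A tail, so poly-A libraries hold few of them. Olfactory or vomeronasal receptor names stood in 5 rows. No merged row held a symbol starting with Hba, Hbb, Krt, Ccl, Cxcl, Serpin, Rpl or Rps. Mitochondrial ribosomal protein genes, whose symbols start otherwise, did stand in merged rows, such as Mrps6,Slc5a3 and Ccdc142,Mrpl53.

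**Figure D4:**
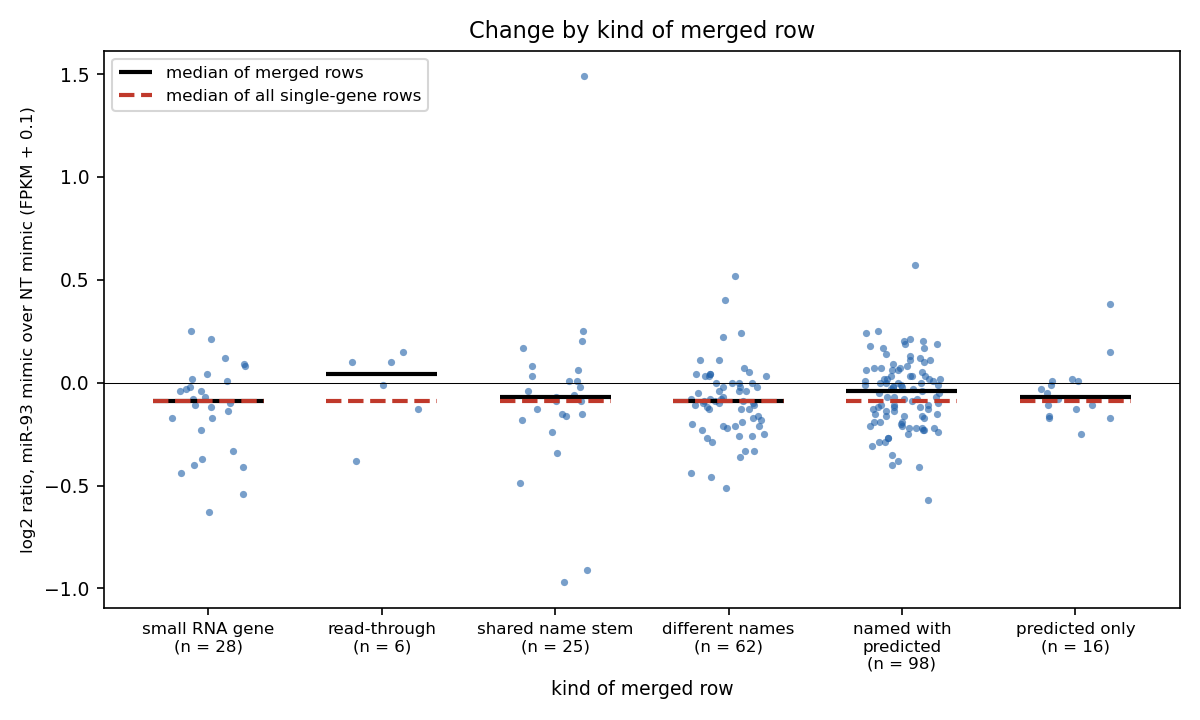
Log2 ratio of miR-93 mimic over NT mimic (y) for merged rows over the floor by kind of row (x), each point a row, with the median of the kind (black) and of all single-gene rows (red dashes, -0.09). The medians run from -0.09 for small RNA rows and rows of different names to 0.04 for the 6 read-through rows, and the widest scatter is among genes of a shared name stem.

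Rows with no call from the authors' tool and rows under the floor made up the rest. The second FAIL row was E030011O05Rik,Zbtb38, with 11.2 FPKM against 13.3 FPKM (log2 ratio -0.24) and a 7mer-m8 match in Zbtb38, a zinc-finger protein that binds methylated DNA. Status NOTEST, given to rows with too few reads, was held by 23 merged rows, none with a mean over 0.126 FPKM. In all, 9 rows were listed at 0 in both groups. Dub2a,Usp-ps had 1.31 FPKM with the miR-93 mimic and 0.00881 FPKM with the NT mimic, a mean under the floor, and its genes lie on opposite strands. The sources used do not say that strand was kept, and without it reads of such a pair cannot be told apart. The row 4933403O03Rik,EG664783 had 0.446 FPKM and was listed at 0 in the NT mimic. A value that is near 0 in 1 group of pooled libraries can rest on few reads, and the read counts were not used here.

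Finally, the merged rows were set beside single-gene rows by their seed match. Of the 235 rows, 220 had a 3′ UTR for at least 1 gene, and 67 of these (30.5%) held a match of 7 or 8 bases, against 22.5% of single-gene rows. Of the 256 merged rows of any level with a 3′ UTR, 129 had one for at least 2 of their symbols. Whether this bears on the difference in share was not tested. The 67 rows had a median log2 ratio of -0.12 and the 153 rows without such a match -0.04, beside -0.14 and -0.08 for single-gene rows. By class, the 17 rows with an 8mer had a median of -0.19, the 32 with a 7mer-m8 -0.10, the 18 with a 7mer-A1 -0.15, the 43 with a 6mer -0.01 and the 110 with none -0.04. Single-gene rows had -0.26, -0.14, -0.08, -0.06 and -0.08 in the same order. The 8mer class thus had the lowest median of both kinds of row. The 4 rows with a match that were past the fold were St6galnac4,St6galnac6, Ctla2a,Ctla2b, Mir700,Rcan3 and Galr3,Gcat, and no row with a match was past it upwards. Among the 2263 single-gene rows with such a match, 198 were past it downwards and 11 upwards, so the merged rows with a match were past the fold no more often than these.

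Within the 8mer class values ranged widely. Klhl2,LOC100502725, with an adaptor of a ubiquitin ligase and 5 matches of 6 or more bases in its 3′ UTR, had 11.4 FPKM with the miR-93 mimic and 15.1 FPKM with the NT mimic (log2 ratio -0.41). Cald1,LOC100503943 lay at -0.19, as given above. The read-through row Cntf,Zfp91,Zfp91-Cntf, with an 8mer in Zfp91, lay at 0.10, and Rundc2a,Snx29, whose symbols now name 1 sorting nexin gene with an 8mer, lay at 0.22 with 2.08 FPKM against 1.76 FPKM.

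**Figure D5:**
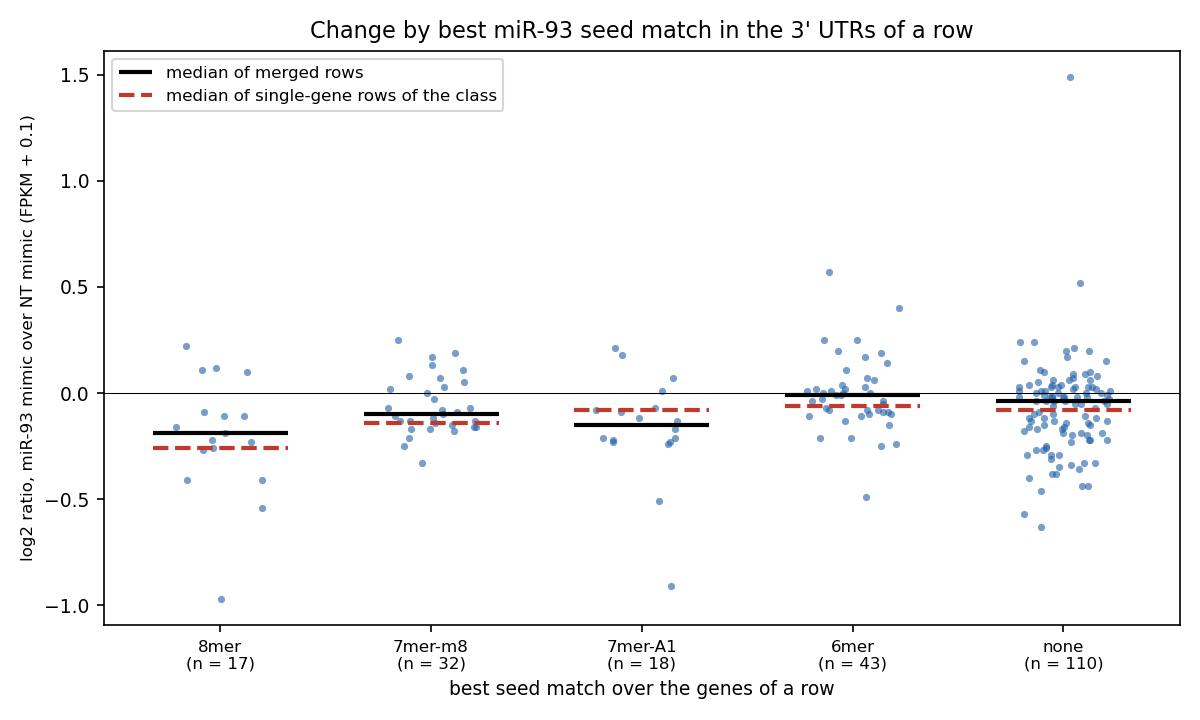
Log2 ratio of miR-93 mimic over NT mimic (y) for merged rows over the floor by the best miR-93 seed match among the 3′ UTRs of their genes (x), each point a row, with the median of merged rows (black) and of single-gene rows of the same class (red dashes). The 8mer class has the lowest medians, -0.19 and -0.26, and the points of all classes overlap.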

How the data were processed

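RNA was sequenced from 2 NT mimic and 2 miR-93 mimic libraries of mouse podocytes. As the methods of the study and the processing notes of the submitters state, poly-A libraries were read as paired ends, checked with FastQC and Trimmomatic, aligned to NCBI build 37.2 (mm9) with TopHat2 2.0.4, assembled with Cufflinks and compared with Cuffdiff2. Versions of the remaining tools were not stated. The FPKM values were deposited by the authors as 1 value per group, pooled over libraries. The methods of the study call the libraries biological replicates, while the labels do not say that those of a group came from separate cultures. The deposited fold changes, test statistics, p-values and q-values of the full table and 4 shorter sheets hold the authors' own comparison and were not used.

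Rows with a comma in the gene name were taken. Log2 ratios used a pseudocount of 0.1 FPKM. The floor was status OK and a mean of 1 FPKM or more, and rows over it were compared, beside all such rows and beside the central 95% of single-gene rows in steps of 0.5 log10 FPKM, the last step open from 316 FPKM. Symbols were called predicted by their form, and C2, which fits that form, was kept as the complement gene. Names counted as a shared stem if their first 2 letters agreed. The 3′ UTRs of at least 30 bases came from GENCODE M21. The bands and seed classes were first tested on simulated data. Python 3.11.15, numpy 2.4.6, pandas 2.3.3, scipy 1.17.1 and matplotlib 3.10.9 were used.

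Named rows were the 10 lowest and 10 highest ratios and the 10 highest levels over the floor, the 5 longest, the 5 with most names, and all rows of status FAIL, with a miRNA gene, outside the band, or with a listed gene family. Some further rows were named that met none of these rules, among them Hoxa5,Hoxa6, Dub2a,Usp-ps, Lrch4,Lrch4-sap25,Sap25 and Chkb,Chkb-Cpt1b,Cpt1b. The rows, lists and alternatives were chosen with earlier results of these data known. Alternatives were other pseudocounts, floors, folds, bands, UTR choices, statuses and a centred ratio. Some marker genes are not reported here.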

Additional observations from a re-analysis of the deposited data

How the results depend on the processing

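Of the 47 values recomputed under another setting, 35 stayed within 1.5 times the main count or inside the 95% interval of the main median over rows, and 12 moved. With a pseudocount of 1, 3 rows were lower and 1 higher by 0.5. With a floor of 5 FPKM 1 row was higher, and with no floor 7 were. At a fold of 1 on the log2 scale 0 rows were lower and 1, Ly6c1,Ly6c2, was higher, a row under the floor level with the NT mimic. Against the central 99% of single-gene rows 1 row lay outside. Centring on the median of all rows (-0.09) left 3 rows lower, and moved the median of merged rows to 0.02, of rows with a match of 7 or 8 bases to -0.03, of rows without one to 0.05 and of small RNA rows to 0.00. In the last 4 cases the shift is the centring itself. For the other settings the cause was not tested beyond the construction of each setting. No paired analysis was possible because the files used here give 1 pooled value per group, and for the same reason no library could be left out in turn. Depth and replicate spread are unknown, so a difference of pooled values cannot be told apart from the spread between libraries, and rows near the floor are the least certain.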

Other observations

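The gene names of 22 rows of the table had been turned into dates, and no merged row was among them. Septin symbols were intact in the rows 100043580,Sept1, Mtmr4,Sept4 and Gp1bb,Sept5. The row 100043580,Sept1 had 1.1 FPKM with the miR-93 mimic and 1.35 FPKM with the NT mimic, and Gp1bb,Sept5 had 11.6 FPKM against 11.9 FPKM.

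Merged rows were not equally common on all chromosomes. Leaving out chromosome Y (0 of 19 rows) and the unplaced contigs, which held none, their share of rows ran from 0.518% on chromosome 7, which held 13 of 2508, to 1.49% on chromosome 12, which held 15 of 1010. These shares are given as values with no test.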
